A study of Mus musculus with 8 samples.

Results

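Among the cells sorted for the Hic1 lineage reporter from embryonic day (E) 16.5 mouse forelimbs were 369 epithelial cells, 318 of 11109 in the proximal library and 51 of 8447 in the distal library, of 53085 cells in all 8 libraries of the series. A cell was taken as epithelial where it had at least 3000 unique molecular identifiers (UMIs, each the count of 1 captured RNA molecule), at most 10% of them mitochondrial, and at least 2 UMIs in at least 3 of the 6 genes Krt5, Krt14, Krt15, Epcam, Cdh1 and Perp. Cells with at least 2 UMIs in at least 3 of Calm4, Ly6d, Asprv1, Lor, Sprr1a and Them5, genes of the upper epidermal layers, were set apart as suprabasal cells and numbered 655 and 32. The epithelial cells were 2.86% (95% Clopper-Pearson interval 2.56 to 3.19) of the proximal library and 0.604% (0.450 to 0.793) of the distal library. Both intervals cover counting error only.

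Embryonic skin is a stratified epithelium. Its basal layer divides, carries the keratin pair KRT5 and KRT14, is held to the basement membrane by hemidesmosomes and is specified by the transcription factor p63 (Trp63). Cells that leave this layer switch to KRT1 and KRT10 in the spinous layer and then build the cornified envelope, while WNT, EDA and SHH signals set up hair placodes in the same sheet. Hic1 encodes a transcriptional repressor, and in the limb it is used to trace mesenchymal progenitors, which make collagen-rich matrix and not keratin.

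Both E16.5 libraries came from C57BL/6J embryos homozygous for a Hic1 allele that encodes CreERT2 and for a Rosa26 reporter in which a stop cassette flanked by loxP sites precedes tdTomato, and recombination was induced by giving pregnant mothers 7.5 mg tamoxifen on day 10 of gestation. Limbs were divided within the zeugopod (forearm). Tissue around the elbow, with the adjoining stylopod (upper arm) and pooled from 6 segments, made the proximal library, and tissue from the cut to the digits, the autopod included, the distal one. The sort took tdTomato+ cells and left out cells with the blood and endothelial surface proteins CD45, CD117, CD31, CD11b, F4/80 and Ter119. The study removed keratin-positive cells as contaminants before its own analysis. Each segment is 1 library, so cells are not replicates, no p-value was computed, and segment, library and software version cannot be told apart.

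After the filter the proximal library held 234893903 UMIs and the distal library 159290759, with a median of 18473 and 17275 UMIs per cell. The epithelial cells had a median of 21820 and 20059 UMIs, all other cells of the same libraries 18404 and 17252, and suprabasal cells 45109 and 47156. The 2 libraries shared 32 cell barcodes, none of which was an epithelial cell in both, while 5 barcodes of epithelial cells occurred in the other library. Levels below are CPM, the UMIs of a gene summed over a group of cells and scaled to a total of 1000000 UMIs, and a ratio compares 2 such levels with its exact 95% interval. Proximal values are given before distal values. A gene is called past the fold where its ratio is at least 4 in the same direction in both libraries, with the higher group at no less than 10 CPM.

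The genes that chose the cells summed to more in them than in cells outside both rules, which is a description and not a result. All 6 had at least 2 UMIs in 137 of 318 proximal and 18 of 51 distal epithelial cells. Krt14 (GRCm38 chr11:100203162-100207548, minus strand), the main basal keratin of type I, had between 0 and 489 UMIs per cell in proximal epithelial cells with a median of 155.5, and between 0 and 514 with a median of 44 in distal ones. Krt5 (chr15:101707070-101712898, minus strand), its type II partner, had medians of 68 and 31 UMIs. In cells outside both rules the median of either gene was 0 and no cell had more than 11 UMIs of Krt14. Summed over cells, Krt15, a basal keratin that is also used as a marker of hair follicle stem cells, stood at 3972 and 2305 CPM. Epcam, an adhesion protein of simple and proliferating epithelia, stood at 562 and 321 CPM, Cdh1 (E-cadherin) at 83.7 and 84.3 CPM, and Perp, a desmosomal membrane protein and p63 target, at 1272 and 605 CPM. At the limit of the rule, 26 proximal and 13 distal epithelial cells had exactly 3 of the 6 genes, and 28 and 13 cells with exactly 2 fell just outside. Of the suprabasal cells, 449 and 28 also met the epithelial part of the rule.

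**Figure D1:**
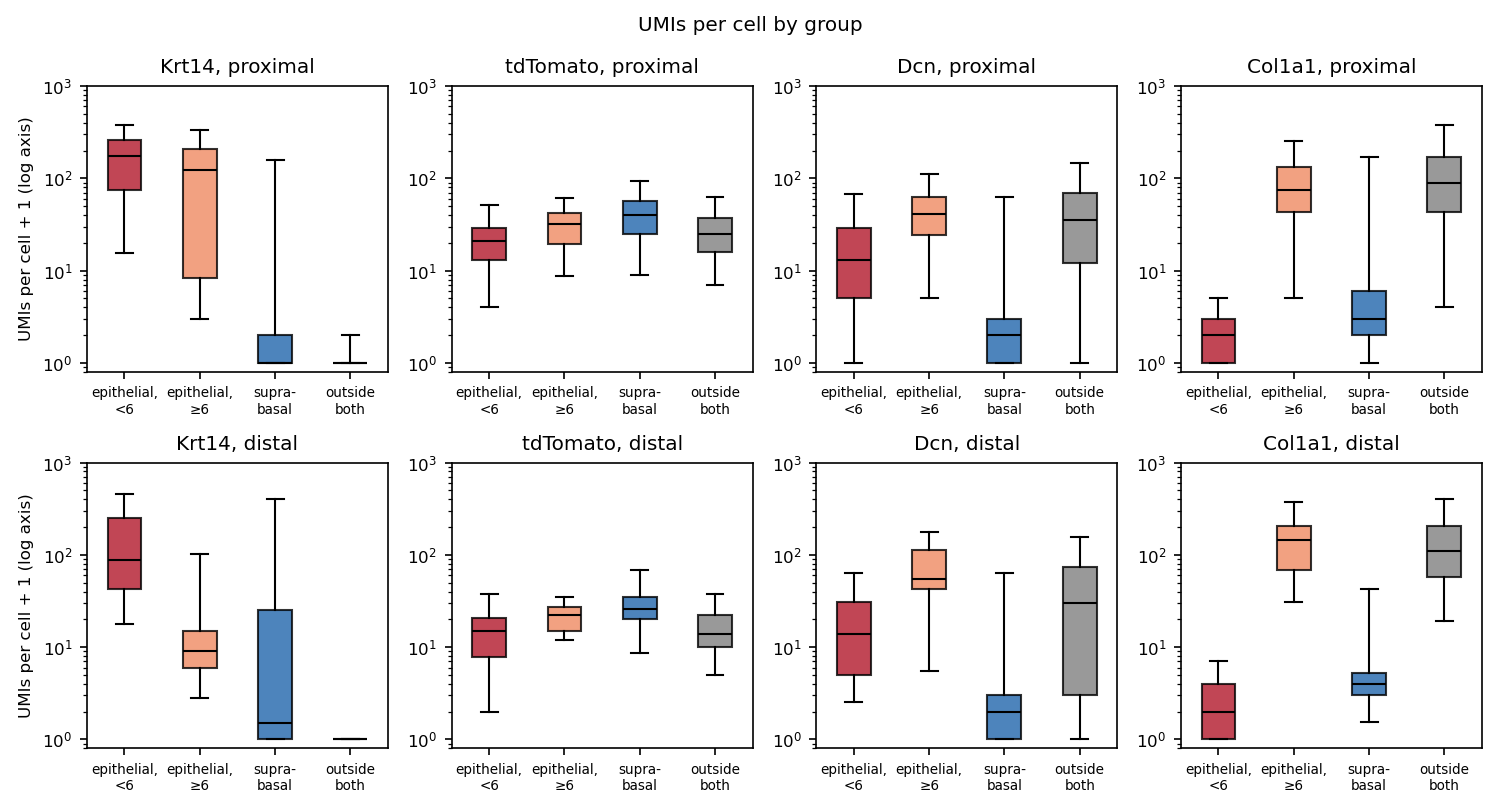
UMIs per cell plus 1 (log axis) of Krt14, tdTomato, Dcn and Col1a1 in 4 groups of cells of the proximal (top) and distal (bottom) E16.5 libraries: epithelial cells with fewer than 6 or with 6 or more of 10 mesenchymal genes, suprabasal cells, and cells outside both rules. Boxes span the 25th to 75th percentile with the median, whiskers the 5th to 95th; tdTomato medians lie between 13 and 39 UMIs in every group, while Col1a1 medians are 1 in the epithelial cells with fewer than 6 mesenchymal genes and 89 and 110 outside both rules.

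Nearly all epithelial cells carried reporter RNA. A tdTomato UMI was found in 315 of 318 proximal and 51 of 51 distal epithelial cells, with a median of 22 and 17 UMIs per cell against 24 and 13 in cells outside both rules. In 14 of the distal epithelial cells (cluster 3 in the grouping of these cells) the median was 2.5 UMIs. As CPM, tdTomato stood at 1025 and 755 in epithelial cells, at 1411 and 857 outside both rules, and at 947 and 575 in suprabasal cells. The ratio of epithelial to all other cells was 0.759 (0.742 to 0.776) and 0.884 (0.826 to 0.945). Hic1 itself (chr11:75164565-75169519, minus strand) had 28 UMIs in all proximal and 3 in all distal epithelial cells, a ratio to all other cells of 0.164 (0.109 to 0.238) and 0.0929 (0.0192 to 0.272). The reporter was closer to its level in the other cells than Hic1 was. All cells had been sorted for tdTomato and not for Hic1 RNA, so the presence of the reporter follows in part from the sort.

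The epithelial cells differed widely in mesenchymal RNA. Of the 10 mesenchymal genes listed (Col1a1, Col1a2, Col3a1, Pdgfra, Lum, Dcn, Postn, Twist1, Prrx1 and Col5a1), 178 proximal and 36 distal epithelial cells had at least 3 at 2 UMIs or more. The number of these genes per cell had a main peak at 2 and a second peak at 9 in each library, and 66 (20.8%) and 19 (37.3%) epithelial cells had 6 or more. The limit of 6 was set after this distribution was seen. Outside both rules, 93.7% and 96.1% of cells had 6 or more. The epithelial cells with 6 or more had a median of 27978 UMIs in the proximal library against 20610 in those with fewer, and 20059 against 19765 in the distal library. A call of doublets from simulated cell pairs (Scrublet) marked 3 and 2 cells in the libraries, none of them epithelial by the rule, and at under 0.5% of cells was taken not to have worked. Whether the cells with 6 or more are 2 cells in 1 droplet was not tested.

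**Figure D2:**
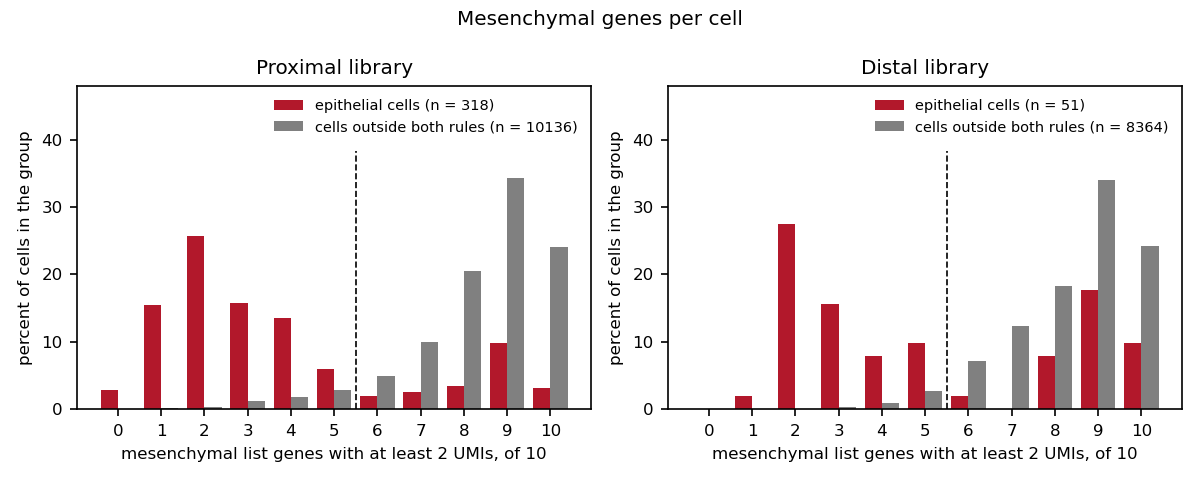
Percent of cells (y axis) by the number of 10 mesenchymal genes with at least 2 UMIs (x axis) for epithelial cells (red) and cells outside both rules (grey) in each E16.5 library; the dashed line marks the limit of 6. Epithelial cells peak at 2 genes with a second peak at 9, where the grey cells peak.

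Over all epithelial cells, Col1a1, the main chain of type I collagen, stood at 13.9% and 33.7% of its level outside both rules, the matrix proteoglycan gene Lum at 21.7% and 75.8%, Dcn at 43.4% and 72.1%, and tdTomato at 72.7% and 88.1%. In the epithelial cells with fewer than 6 mesenchymal genes, a group picked by these same genes, collagen RNA was low. Col1a1 stood there at 1.26% and 0.992%, and the mesenchymal transcription factor Twist1 at 1.12% and 0.897%. Without Dcn, the 9 other genes of the list had a median of 1.40% and 0.992%, with Postn highest at 7.30% and 19.4%. The reporter stood at 71.7% and 77.8%. Dcn (chr10:97479609-97518143, plus strand), the proteoglycan decorin, stood at 36.9% and 36.5%, with a median of 12 and 13 UMIs per cell and at least 2 UMIs in 86.1% and 93.8% of these cells. The low collagen of these cells follows in part from how they were picked. The genes that picked them did not include tdTomato, but the sort had selected all cells for tdTomato. Suprabasal cells, which were not picked by mesenchymal genes, had Dcn at 8.62% and 8.28% and Col1a1 at 9.0% and 2.14%, with tdTomato at 67.1% in each library. Whether reporter RNA in the epithelial cells came from other cells of the suspension was not tested. Hic1 stood at 4.91% in the proximal epithelial cells with fewer than 6 and at 0 UMIs in the 32 distal ones.

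**Figure D3:**
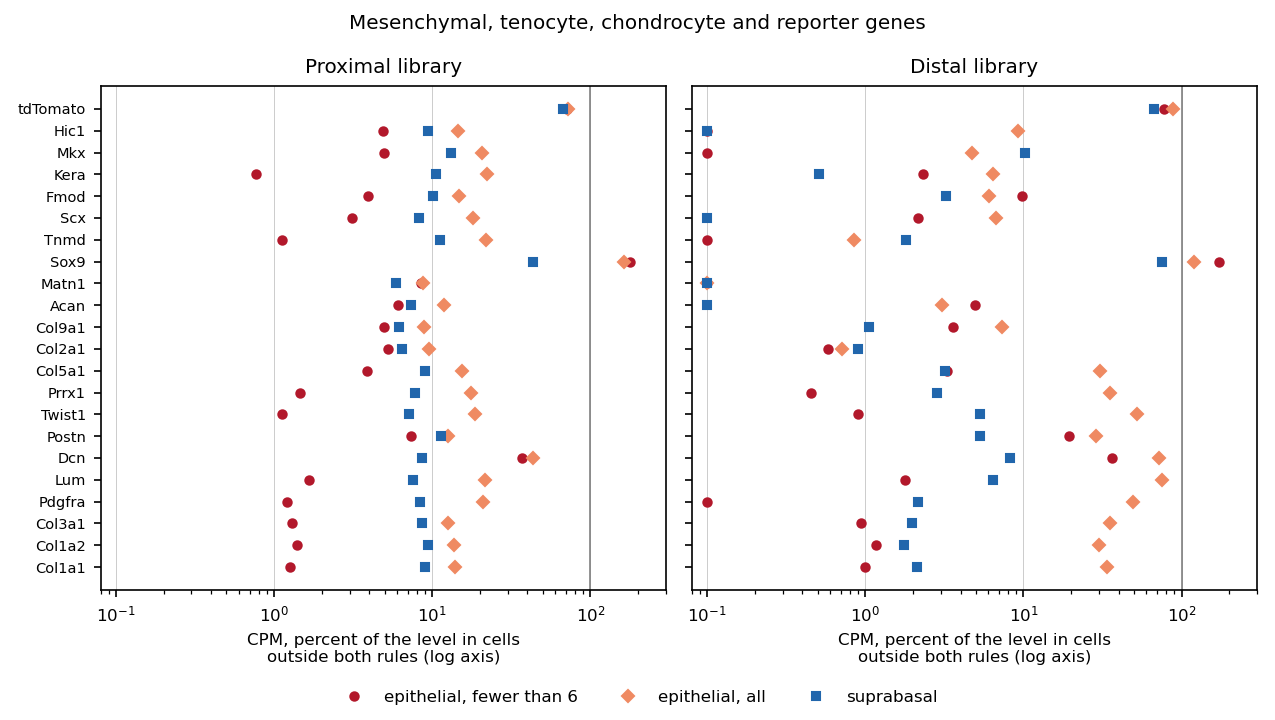
CPM of mesenchymal, chondrocyte, tenocyte and reporter genes as a percent of the level in cells outside both rules (log axis, grey line at 100%) in all epithelial cells, in those with fewer than 6 mesenchymal genes and in suprabasal cells of each library; values under 0.1%, zeros included, are drawn at 0.1%. tdTomato lies at 67.1% to 88.1% in every group, Dcn at 36.5% to 36.9% in the epithelial cells with fewer than 6, and Col1a1, Col1a2 and Col3a1 of those cells near 1%.

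The genes of basement membrane anchoring were higher in the epithelial cells than in the rest of either library. Of the 11 genes of this list, 7 were at least 4-fold higher in both libraries and none lower, where 171 of all 8059 genes tested (2.12%) were higher and 311 (3.86%) lower. The median log2 ratio of the list was 3.38 and 4.04, and that of all genes tested -0.11 and -0.07. Col17a1 (chr19:47646344-47692094, minus strand), the transmembrane collagen of the hemidesmosome, stood at 151 CPM in epithelial and 2.78 CPM in all other proximal cells, and at 193 and 1.33 CPM in the distal library. Its ratio was 54.3 (49.3 to 60.0) and 144 (119 to 175). Lama3 and Lamb3, chains of epithelial laminin in the basement membrane, had ratios of 26.2 and 27.7 and of 10.4 and 16.5. Among the integrins, Itga6 had ratios of 9.16 (8.52 to 9.83) and 5.83 (5.0 to 6.77), its hemidesmosome partner Itgb4 33.1 and 45.3, and Itga3, a laminin-binding integrin chain, 79.6 and 85.5. Dst (5.0 and 3.50), Cd151 (4.23 and 3.24), Plec (2.56 and 1.38) and Col7a1 (2.04 and 2.92), which encode cytoskeletal linkers, a tetraspanin and the anchoring fibril collagen, were under the 4-fold limit in at least 1 library. At 2 UMIs per gene, 77.7% and 66.7% of epithelial cells had at least 3 anchoring genes, against 3.78% and 7.22% of cells outside both rules.

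Of the 12 epidermal transcription factors at 10 CPM or more, 9 were past 4-fold in both libraries. Trp63 (chr16:25683763-25892102, plus strand) stood at 112 against 5.88 CPM in the proximal library and 135 against 1.07 CPM in the distal one, ratios of 18.9 (17.4 to 20.7) and 125 (100 to 157). The proximal ratio is lower beside 42.5 CPM of Trp63 in the suprabasal cells, which belong to the other cells and are more numerous there. Against cells outside both rules, at 0.474 and 0.441 CPM, the ratios were 235 and 305. The AP-2 factors Tfap2a (74.2 and 95.5 CPM) and Tfap2c (40.7 and 31.3 CPM) were likewise past the fold, as were Klf5, Grhl2, Grhl3, Gata3 and Ovol1, regulators of epidermal growth, barrier formation and differentiation. Tfap2b, another AP-2 gene, outside the list, had ratios of 55.5 and 39.4. Klf4, a barrier factor, was lower in epithelial than in other cells (411 against 625 CPM and 430 against 612 CPM), within the 4-fold limit.

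**Figure D4:**
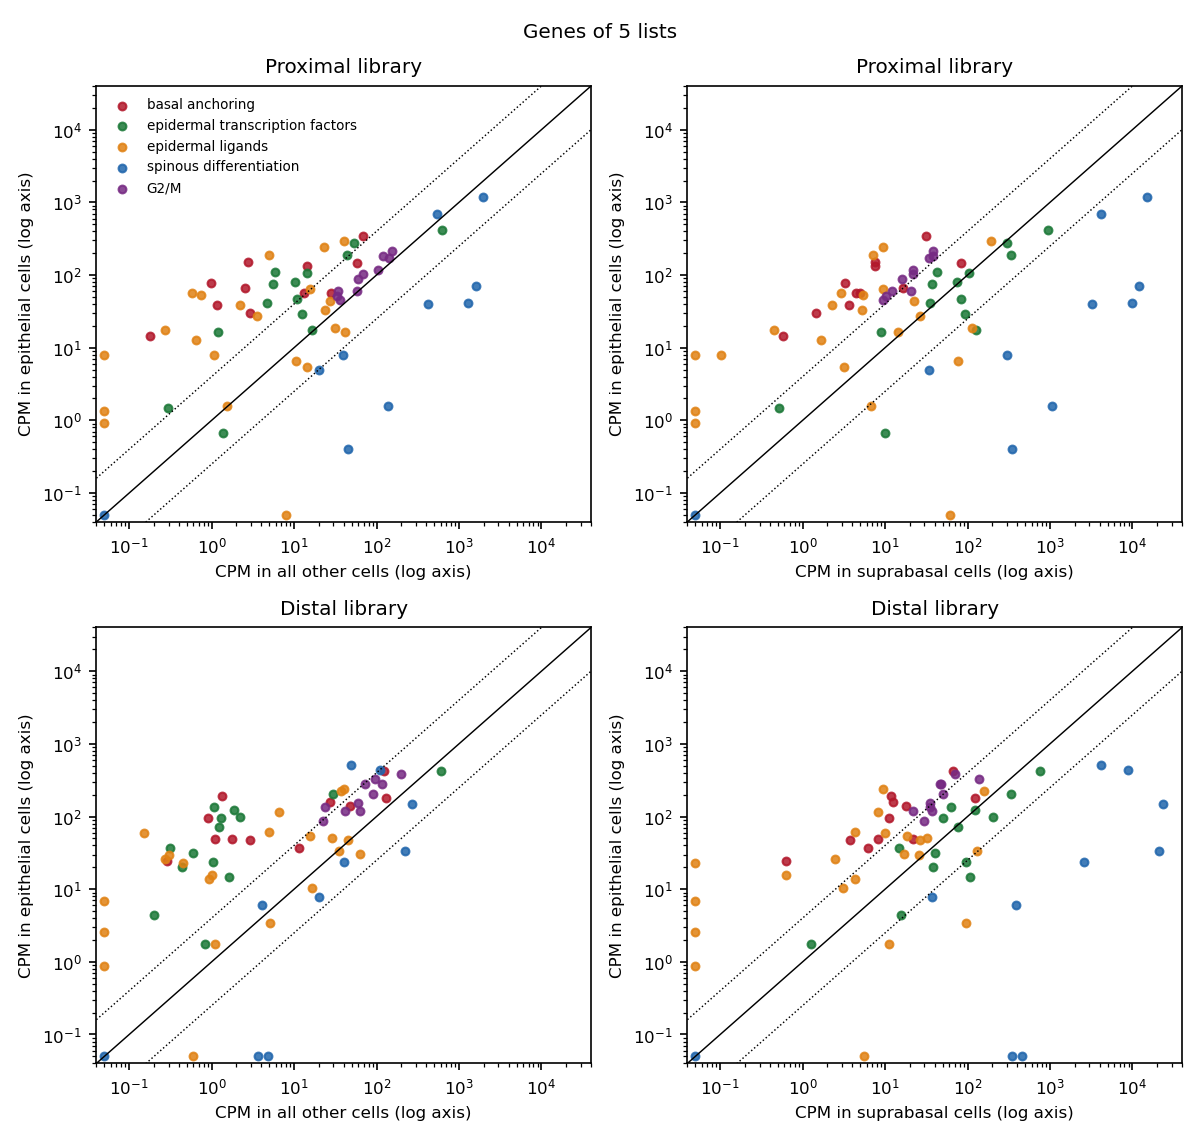
CPM of the genes of 5 lists in epithelial cells (y axis) against all other cells (left) and suprabasal cells (right) of the proximal (top) and distal (bottom) libraries; both axes are log, values under 0.05 CPM are drawn at 0.05, the solid line marks equal levels and the dotted lines 4-fold. Basal anchoring genes lie above the upper dotted line in most panels, and spinous genes below the lower one against suprabasal cells.

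The genes of cell junctions separated less from the rest of the proximal library. Of 12 desmosome and junction genes 9 were tested, and 3 of these were past 4-fold in both libraries: Pkp3 (151 and 101 CPM), a plaque protein, and the cadherins Dsg2 (37.6 and 24.3 CPM) and Dsg3 (21.7 and 23.4 CPM). Dsp, the desmosomal linker desmoplakin, was at 307 against 216 CPM in the proximal library and 396 against 31.2 CPM in the distal one. Suprabasal cells had 1652 and 2709 CPM of it. The 12 genes of the list summed to 1116 and 1037 CPM in epithelial cells and to 35.2 and 30.7 CPM outside both rules. In suprabasal cells, which belong to the other cells, they summed to 3449 and 4681 CPM. Of 12 general epithelial genes only 5 had enough RNA to be tested, and 4 of these were past the fold. Among them were the splicing regulator Esrp1 (51.3 against 11 and 58.2 against 1.08 CPM), the protease inhibitors Spint1 and Spint2, and Krt18, a keratin of simple epithelia, at 55.2 and 13.9 CPM.

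Some signals that embryonic epidermis is known to send were higher in the epithelial cells. Of 22 ligand genes 15 had enough RNA to be tested, and of these 9 were past 4-fold in both libraries and none was lower. Wnt3 stood at 53.8 against 0.748 CPM and 59.1 against 0.152 CPM, Wnt6 at 190 against 5.02 and 115 against 6.63, and Wnt4 at 292 against 40.0 and 227 against 37.0. The others past the fold were Wnt7b, Wnt10a, Wnt10b and Wnt16, the fibroblast growth signal Pdgfa (245 against 23.2 CPM and 237 against 39.9 CPM), and the NOTCH ligand Jag2 (17.7 against 0.273 and 22.6 against 0.455). Bmp7 (ratios 4.20 and 3.51) and Jag1 (1.58 and 1.78) were short of it. Among 11 receptor genes tested, Erbb3, Fgfr2, which receives mesenchymal FGF signals, and Met, the receptor of hepatocyte growth factor, were past the fold. Fgfr2 stood at 89.1 and 102 CPM, 6.15 (5.65 to 6.68) and 5.31 (4.38 to 6.38) times the other cells. Egfr, at 26.3 and 53.9 CPM, had ratios of 0.963 and 1.18.

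Beside the lists, the rule for single genes named Krt17 (chr11:100256217-100261029, minus strand), a keratin of periderm and hair appendages, at 1134 and 1264 CPM, Kremen2, a receptor that binds DKK proteins, at 87.3 and 88.6 CPM, and Bcam, a laminin-binding adhesion protein, at 162 and 157 CPM. It also named the transcription regulator Lmo1 (646 and 383 CPM), the adhesion protein Cxadr (99.02 and 149 CPM), Ppp1r14c (128 and 106 CPM), Cdcp1 (60.4 and 81.7 CPM), Serpinb10 (64.9 and 79.9 CPM) and 4631405K08Rik (70.9 and 80.8 CPM). The type I keratin genes Krt14, Krt15, Krt16 and Krt17 lie close together on chromosome 11 and are similar in sequence, so reads of one may have been counted for another.

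On the lower side the rule named 10 genes. Rbp4, a retinol carrier, stood at 3.99 against 60.2 CPM and 4.34 against 63.3 CPM, a ratio of 0.0663 (0.0447 to 0.0947) and 0.0686 (0.0223 to 0.160). Dlk1, a membrane protein of growing mesenchyme, had 454 against 3812 CPM and 255 against 2337 CPM, and the matrix gene Ogn 52.9 against 467 and 67.8 against 581. Col2a1, Col9a1, Col11a1 and Hapln1 of cartilage matrix, Akap12, Limch1 and Meox2 were the others. Of the 5 chondrocyte genes 4 were at least 4-fold lower, and all 4 tenocyte genes tested. Sox9 was not, at 212 against 121 CPM and 96.4 against 79.8 CPM; it is a gene of both cartilage and hair epithelium. None of the 10 mesenchymal genes reached 4-fold lower in both libraries over all epithelial cells. The summed list stood at 3879 and 9962 CPM, at 1250 and 1382 CPM without the cells with 6 or more, and at 22583 and 25599 CPM outside both rules. Without those cells, 766 genes were past 4-fold lower instead of 311, of which 270 were among the 311, and 210 were higher instead of 171, all 171 among them. Without the cells with 3 or more mesenchymal genes, 502 were lower, of which 158 were among the 311, and 209 higher, of which 160 were among the 171.

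Markers of blood, vessel, muscle, nerve and pigment cells were at or near 0, while the summed lists of other mesenchymal types were higher. Summed over the list, proximal epithelial cells had 3.46 CPM of 6 myogenic genes, 3.72 CPM of 5 endothelial genes, 0.399 CPM of 6 immune genes, 2.13 CPM of 5 melanocyte genes, 1.46 CPM of 5 Schwann cell genes and 0.532 CPM of 5 globin genes. In distal epithelial cells the myogenic, immune and globin lists had 0 UMIs, and the endothelial, melanocyte and Schwann cell lists 4.34, 0.869 and 1.74 CPM. The 5 pericyte genes summed to 24.5 and 10.4 CPM in epithelial cells against 165 and 119 CPM outside both rules, the 5 tenocyte genes to 119 and 18.2 against 587 and 469 CPM, and the 5 chondrocyte genes to 518 and 110 against 3376 and 774 CPM. Single genes of these lists differed. In distal epithelial cells 3 of the 5 pericyte genes had 0 UMIs. Of the chondrocyte genes, Sox9 stood at 162.5% and 120.6% of its level outside both rules, Col2a1 at 9.58% and 0.716%, and Matn1 at 8.74% and 0. The 8 periderm genes summed to 1213 and 1280 CPM against 8.81 and 6.83 CPM outside both rules, nearly all of it Krt17, and both genes tested, Krt17 and Krt18, were past 4-fold higher. At 2 UMIs per gene, 13 of 318 proximal and 0 of 51 distal epithelial cells had at least 3 periderm genes. Of the others on this list, Krt4 and Gabrp had 0 and 0.133 CPM in the proximal library and 0 UMIs in the distal one, and Krt6a 9.70 CPM and 0 UMIs. The 7 Merkel cell genes summed to 77.4 and 25.2 CPM against 57.1 and 88.7 CPM, with Krt18 past 4-fold higher and the touch channel gene Piezo2 past 4-fold lower, and no epithelial cell had 3 of them. Among these genes, Sox2 and Krt20 had 0 UMIs in all 369 cells, Isl1 0.133 and 0 CPM, and Atoh1 1.86 and 0.869 CPM. The cells were not named as either type.

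Against the suprabasal cells, the other keratinocytes of the sort, the epithelial cells differed in both directions. Of 7449 genes tested, 514 (6.9%) were at least 4-fold higher in both libraries and 344 (4.62%) lower. Of the 11 anchoring genes 9 were higher, and all 9 spinous and all 7 cornified envelope genes tested were lower; these follow in part from the rule, since it excluded cells with suprabasal genes. Krt1 stood at 41.1 against 9829 CPM and 33.9 against 21304 CPM, and Krt10 at 70.5 against 12163 CPM and 149 against 23645 CPM. Hrnr, Sprr1b and Cnfn of the cornified envelope, the desmosomal cadherin Dsc1, the keratin Krt77, Ly6g6c and Serpinb12 made up the remaining genes named on the lower side. Krtdap and Dmkn, which are secreted by early differentiating keratinocytes, were present at 1187 and 688 CPM in proximal and 434 and 505 CPM in distal epithelial cells, and remained at least 4-fold below the suprabasal level. On the higher side Pdgfa had ratios of 25.9 (22.8 to 29.5) and 25.4 (15.1 to 46.0), the chemokine Cxcl14 22.8 (21.2 to 24.4) and 28.3 (21.8 to 37.4), and Lef1, the nuclear partner of beta-catenin, 16.1 (13.4 to 19.5) and 23.2 (11.9 to 51.8). Ccnd2, a G1 cyclin, stood at 700 against 41.4 CPM and 903 against 63.6 CPM. Col17a1, Wnt6, Lmo1 and Ctnnal1 were also named. Trp63 was less separated, at 2.62 and 2.14 times the suprabasal level.

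Some genes of division were past 4-fold higher than in suprabasal cells, 6 of 10 G2/M and 3 of 9 S phase genes, and none of either list was past it against all other cells. Summed over the list, the 10 G2/M genes stood at 1089 and 2106 CPM in epithelial cells, 222.9 and 510.9 CPM in suprabasal cells and 898.5 and 789.6 CPM outside both rules. In the epithelial cells with fewer than 6 mesenchymal genes the list stood at 1083 and 1658 CPM. When the epithelial cells were grouped, Mki67 (296 CPM) and Top2a (520 CPM) were highest in cluster 6, which held 28 cells. Ccnb1 (127 CPM) and Cdc20 (173 CPM) were highest in cluster 3. Against all other cells the median log2 ratio of the G2/M genes was 0.49 and 1.44, and that of all genes tested -0.11 and -0.07. The 9 S phase genes summed to 594.5 and 548.1 CPM in epithelial cells, 141.1 and 173.2 CPM in suprabasal cells and 515.6 and 463.2 CPM outside both rules. Top2a stood at 211 CPM in proximal epithelial, 156 in all other and 38.6 in suprabasal cells, and at 391, 201 and 70.4 CPM in the distal library. At 2 UMIs per gene, 48.7% (43.1 to 54.4) of proximal and 37.3% (24.1 to 51.9) of distal epithelial cells had at least 3 G2/M genes, against 19.4% and 13.4% outside both rules. With every cell thinned to 3000 UMIs and 1 UMI per gene, the shares were 37.1% (31.8 to 42.7) and 37.3% (24.1 to 51.9) against 15.2% and 10.4%, and 7.33% and 12.5% of suprabasal cells. For S phase, 51.3% and 51.0% of epithelial cells had at least 3 genes at 2 UMIs per gene, against 30.5% and 24.7% outside both rules. The thinned S phase shares were 17.3% (13.3 to 21.9) and 11.8% (4.44 to 23.9) in epithelial cells, close to the 14.4% and 11.2% outside both rules, and 2.75% and 6.25% in suprabasal cells.

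Immediate early and heat shock genes, which handling and dissociation of tissue are known to induce, also summed to more in the epithelial cells than outside both rules. The 10 genes of this list stood at 3438 and 3883 CPM in epithelial cells, 1942 and 2418 CPM outside both rules and 3692 and 4900 CPM in suprabasal cells, and none was past 4-fold against all other cells in both libraries. Their median log2 ratio to all other cells was 0.53 and 0.15. Atf3 stood at 760 against 142 CPM and 942 against 179 CPM outside both rules, and Jun at 1323 against 782 and 1476 against 649 CPM, while Junb was lower at 239 against 326 and 265 against 354 CPM. With every cell thinned to 3000 UMIs and 1 UMI per gene, 73.6% (68.4 to 78.4) of proximal and 54.9% (40.3 to 68.9) of distal epithelial cells had at least 3 of them, against 44.7% and 56.5% outside both rules. The part of cell handling in the other differences was not tested.

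Some epithelial cells carried RNA of hair placode and germ genes. Of 8 genes of this list tested, 4 were past 4-fold higher than in other cells: Lef1 (78.2 and 130 CPM), Wnt10a (56.1 and 26.1 CPM), Wnt10b (12.6 and 13.9 CPM) and Lhx2 (21.8 and 41.7 CPM), a transcription factor of the hair germ. Shh, the signal of the placode, had 7.97 and 6.95 CPM in epithelial cells, 60 and 8 UMIs, against 2 UMIs in all other cells of each library. Dkk4, a WNT inhibitor of the placode, stood at 17.1 and 2.61 CPM, and Edar, the ectodysplasin receptor, at 2.13 and 7.82 CPM. At 2 UMIs per gene, 39.3% (33.9 to 44.9) and 37.3% (24.1 to 51.9) of epithelial cells had at least 3 of the 12 genes, and outside both rules 4.13% and 7.95%. With every cell thinned to 3000 UMIs and 1 UMI per gene, both the depth and the limit per gene differ, and the shares were 10.4% (7.25 to 14.3) and 11.8% (4.44 to 23.9) against 1.20% and 2.37%. These shares do not count placode or germ cells, since some genes of the list were found more widely. In clusters 2 and 4 of the grouping below, Lef1 stood at 93.2 and 81.5 CPM and Wnt10a at 80.6 and 72.5 CPM. Shh, Edar, Fgf20 and Dkk4 had 0 CPM in both of these clusters.

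The 369 epithelial cells were grouped among themselves into 6 clusters, each with cells of both libraries. Cluster 1 (82 cells, 72 proximal) was led by Pthlh, Ctgf and Filip1l, and held Krt17 at 3978 CPM against 491 CPM in the other epithelial cells, Lhx2 at 106 against 5.4 CPM, the BMP and WNT modulator Sostdc1 at 323 against 50.9 CPM and Shh at 32.9 CPM. Cluster 3 (66 cells, 52 proximal) was led by Dkk4 at 79.7 against 4.31 CPM, followed by the immediate early genes Fos and Egr1. Wnt16 (110 against 29.7 CPM) and the mitotic genes Cdc25c and Cdc20 were also among its leading genes. Krt17 was 350.5 CPM there. The placode and germ genes did not all peak in the same cluster. Among them Lhx2, Sox9 and Shh were highest in cluster 1, Dkk4, Edar and Lef1 in cluster 3, Wnt10a in cluster 2 (80.6 CPM) and Trps1 in cluster 6 (218.5 CPM). Cluster 2 (82 cells, 76 proximal) was led by Igfbp3, F3, Krt16, Stfa3 and Aqp3 and had Krt14 at 11032 CPM. The G2/M genes Mki67 (11.4 CPM) and Top2a (27.5 CPM) were lowest there among the clusters. Cluster 4 (57 cells, 54 proximal) was led by E2f8, Cdca5, E2f2 and Pbk, genes of DNA replication and division, and had a median of 32178 UMIs per cell. The clusters were made from these genes, so their differences are not tests.

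Clusters 5 and 6 held nearly all cells with 6 or more mesenchymal genes, 51 of 54 and 28 of 28. Cluster 5 (48 proximal and 6 distal cells, median 30640 UMIs) was led by Dlk1, Col2a1 of cartilage, Mest and Tnmd of tendon, and still held Krt14 at 4463 and Krt5 at 1888 CPM. Cluster 6 (16 proximal and 12 distal cells, median 15903 UMIs) was led by Twist2, Crabp1, Zeb2 and Pth1r, with Lum at 2831 and Col1a1 at 7228 CPM, while Krt14 was 641 and Trp63 11.1 CPM. By this cluster's genes the epithelial label rests on keratin UMIs that stood far below those of the other clusters. The epidermal transcription factors Tfap2a (5.56 CPM) and Klf5 (35.2 CPM) were also lowest there. Over clusters, tdTomato varied from 756 (cluster 3) to 1397 CPM (cluster 6) in proximal cells and from 464 to 1038 CPM in distal cells, again lowest in cluster 3 and highest in cluster 6. Per cell, the distal cells of cluster 3 had a median of 2.5 tdTomato UMIs, and those of the other clusters medians of 17.5 to 34. Dcn was at 644 CPM or more in every cluster, and Hic1 at 0 to 2.81 CPM in clusters 1 to 4 and at 10.5 and 11.1 CPM in clusters 5 and 6.

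**Figure D5:**
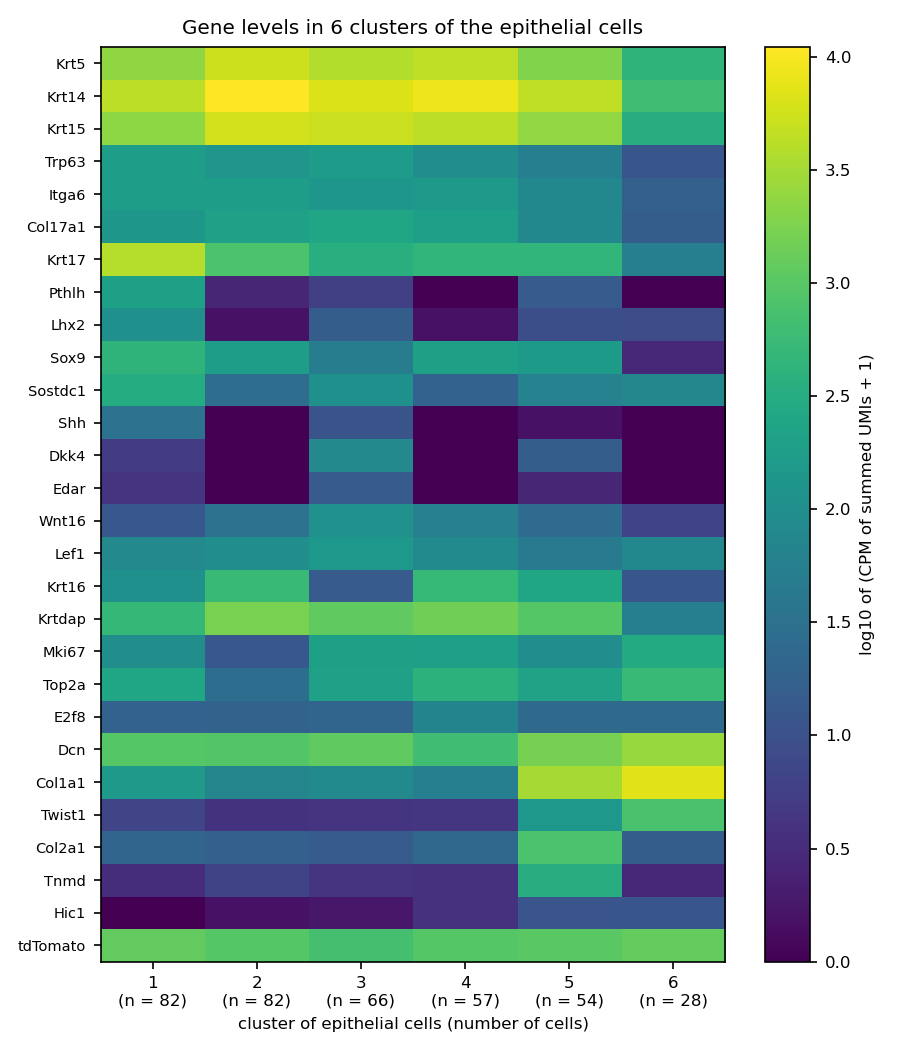
Log10 of CPM plus 1 for selected genes in 6 clusters of the E16.5 epithelial cells, both libraries together, with the number of cells under each column. Krt17, Lhx2, Sostdc1 and Shh are highest in cluster 1, Dkk4 and Edar in cluster 3, Col1a1 in cluster 6 and Col2a1 in cluster 5, while tdTomato lies between 700.1 and 1233 CPM.

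Between segments, 130 of 8147 genes (1.6%) were at least 4-fold higher in distal than in proximal epithelial cells and 39 (0.479%) lower. Of the epithelial lists, no gene of the anchoring, junction, transcription factor, spinous, ligand or receptor lists was among them. Dkk4 of the placode list (17.1 proximal and 2.61 CPM distal), Sprr1b of the cornified envelope (10.8 and 1.74 CPM) and Krt8, a keratin of simple epithelia that the general epithelial, periderm and Merkel cell lists all hold (12.2 CPM and 0 UMIs), were lower in distal cells. On the higher side stood Twist1 of the mesenchymal list (53.6 and 244 CPM) and the limb position genes Hoxa11 (1.33 and 19.98 CPM) and Tbx5 (5.05 and 23.4 CPM). Without the cells with 6 or more mesenchymal genes Twist1 stood at 3.23 and 4.22 CPM, Hoxa11 at 0 and 1.41 CPM, and Tbx5 at 0 UMIs in both libraries. On the lower side were also 4 of 5 chondrocyte genes, 2 of 4 tenocyte genes and 1 pericyte gene, Acta2 (17.4 and 2.61 CPM). Col17a1 (1.27, 1.10 to 1.47) and Lef1 (1.67, 1.38 to 2.00) were higher in distal cells, within the 4-fold limit. The 6 genes of the rule, given as a description, summed to 16246 and 11700 CPM in all epithelial cells and to 18607 and 17406 CPM in those with fewer than 6 mesenchymal genes. Levels of several genes with larger differences fell when the cells with 6 or more mesenchymal genes were left out. Those cells were picked by mesenchymal genes, Twist1 among them, so such a fall follows in part from the selection. The part of these cells in the differences between segments was not tested. Mmp11 stood at 88.6 CPM in distal and 8.11 in proximal epithelial cells and at 5.63 and 3.41 without the cells with 6 or more mesenchymal genes. Vcam1 stood at 132 and 15.4 CPM and at 1.41 and 1.44 CPM without them, Stmn2 at 61.7 and 3.32 and then 1.41 and 0.539 CPM, and Tnmd at 1.74 and 76.6 and then 0 and 3.95 CPM. Without these cells 63 of 7578 genes were higher in distal cells, 18 of them among the 130 in all epithelial cells, and 44 lower, 25 of them among the 39. Adam33 and the agouti gene were also named on the higher side, and Col2a1, Col9a3 and Matn1 of cartilage on the lower side. Col2a1 had ratios of 0.0176 in epithelial cells and 0.235 outside both rules.

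A few of the largest differences between segments had the same direction in the other cells of the libraries, and whether their sizes differed was not tested. Rpl29 was 32.5 times higher in distal epithelial cells and 42.8 times in distal cells outside both rules, Gm10076 9.35 and 9.34 times, and Spag7 8.0 and 6.23 times. Gm3550, Gm10263 and Rpl36-ps3 had ratios of 0.0233, 0.0256 and 0.0283 in epithelial cells and 0.0262, 0.0259 and 0.0952 outside both rules, and Arl6ip5 0.186 and 0.273. Several of these are ribosomal protein genes or copies of them. The 2 libraries were counted with different versions of Cell Ranger, and how reads were assigned between such genes and their copies was not tested.

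Cells that met the same rule were also found at E14.5 and not in the earlier sorted libraries. Their share at E14.5 was close to that of the distal E16.5 library (0.604%, 0.450 to 0.793) and below that of the proximal one (2.86%, 2.56 to 3.19). The E14.5 library came from undivided forelimbs, so stage and limb region cannot be told apart in this comparison. There were 0 in the sorted E11.5, E12.5 and E13.5 libraries, which allows shares of up to 0.0948%, 0.0636% and 0.0490% (3 cells of the total, a one-sided limit; the upper ends of the two-sided Clopper-Pearson intervals are 0.117%, 0.0782% and 0.0602%), and 55 of 8381 cells (0.656%, 0.495 to 0.853) in the sorted E14.5 library. The whole-limb E11.5 libraries held 7 of 5464 and 14 of 5682 cells, with 0 tdTomato UMIs in them. They were not sorted for tdTomato, and the paper found the reporter in only a small share of E11.5 forelimb mesenchymal cells. So few unsorted cells cannot be compared with the sorted libraries for the reporter. In the E14.5 cells, tdTomato had a median of 3 UMIs against 6 outside both rules and was found in 47 of 55 cells, and Krt14 had a median of 29 UMIs. Krt5 and Col17a1 stood at 1074 and 43.9 CPM there, Krt17 at 93.4 CPM and Dkk4 at 72.3 CPM. The E11.5 to E13.5 sorted libraries had medians of 8992, 8683 and 6788 UMIs per cell, below the later ones. With every cell thinned to 3000 UMIs, 36 E14.5 cells (0.430%, 0.301 to 0.594) met the rule, at the same 2 UMIs per gene. So did 40 distal (0.474%, 0.338 to 0.644) and 337 proximal (3.03%, 2.72 to 3.37) E16.5 cells, while 0 cells did in the sorted E11.5, E12.5 and E13.5 libraries. E11.5 to E13.5 used an older kit version, so kit and stage cannot be told apart.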

How the data were processed

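The E16.5 libraries were made with droplet-based 3′ single-cell RNA sequencing (10x Genomics, version 3 chemistry). The deposited values are unnormalized UMI counts for each gene in each barcode, made by the authors with Cell Ranger against mm10 with tdTomato, CreERT2 and SSM2GFP sequences added; file headers give version 3.0.2 for the proximal and 6.0.1 for the distal library. The libraries are separate tables, with 236408650 and 160375326 UMIs in all.

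Of 11716 and 9061 deposited barcodes, 11109 and 8447 passed the limits of 3000 UMIs and 10% mitochondrial UMIs. UMIs were summed over cells of a group and given as CPM with exact conditional binomial intervals for ratios (scipy 1.17.1, Python 3.11.15). A level of 0 UMIs was set to 3 UMIs over the group for ratios, which are then bounds. The computation was tested on simulated counts. Doublets were not removed. Cells were thinned to 3000 UMIs for shares where stated. The epithelial cells alone were clustered (scanpy 1.11.5, leidenalg 0.10.2) on 1000 variable genes, 20 components, 15 neighbours and a resolution of 0.5, without mitochondrial, globin and sex-linked genes. Gene positions are from GENCODE M21 (GRCm38), matched by gene identifier.

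The members and the 28 gene lists were chosen with earlier results of these data known. Genes of the lists could be named; beyond them, the 15 highest and 10 lowest ratios of CPM plus 1 between epithelial and other cells, ranked by the smaller change of both libraries, and the 8 per direction for the other comparisons, at 50 CPM or more in the higher group, without globin, mitochondrial, sex-linked and rule genes. Alternatives covered the rule's limits, filters, thinning, per-cell means and members rich in mesenchymal genes. One gene list member with 2 rows of the same symbol (Flg) was not used, and some genes counted in the lists or named by the rule are not reported here. Each group is 1 library, except the whole-limb E11.5 group with 2. Intervals cover counting error only, not differences between embryos or preparations, and those of ratios do not cover differences between cells either.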

Additional observations from a re-analysis of the deposited data

Results flagged for a closer look

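Serpinb2, a serine protease inhibitor of keratinocytes, moved in opposite directions when epithelial cells were set against all other cells: the CPM ratio was 0.239 in the proximal and 9.27 in the distal library. It stood at 103 and 130 CPM in epithelial cells and at 3318 and 1327 CPM in suprabasal cells, which were 655 of the proximal and 32 of the distal cells and belong to the other cells. The difference between libraries was not tested, since each segment is 1 library. Outside the E16.5 libraries, cells that met the rule numbered 55 in the sorted E14.5 library, 7 in the first and 14 in the second whole-limb E11.5 library. The signal in the E14.5 library was above the limit of 0.0490% that 0 cells allowed at E13.5. The whole-limb libraries held cells negative for the blood and endothelial markers, with or without tdTomato. Their 7 and 14 cells that met the rule had 0 tdTomato UMIs. The sample labels give no tamoxifen dose for these libraries, and the paper found few tdTomato+ cells in the forelimb at E11.5. The absence of the reporter in so few unsorted cells therefore cannot be compared with the sorted libraries.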

How the results depend on the processing

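Each E16.5 segment is 1 library, so no analysis paired across replicates was possible and no replicate could be left out. Ratios of epithelial to other cells were taken within each library. The whole-limb E11.5 group has 2 libraries, which were given singly. Of 109 alternative values, 62 stayed within their interval or within 1.5 times the count and 47 moved. Shares and counts could not reverse. Only the tdTomato and Hic1 ratios could, and none of them did. Removing doublets called by Scrublet gave no usable value. The cause of a move was not tested. The share of epithelial cells (2.86% and 0.604%) became 6.90% and 0.935% with suprabasal cells kept, 1.28% and 0.178% without cells with 3 or more mesenchymal genes, 2.28% and 0.380% without those with 6 or more (a limit chosen after seeing the data), and 2.40% in the proximal library at 5% mitochondrial UMIs. The 171 genes higher than in other cells became 265 with suprabasal cells left out of the others, 64 at 50 CPM or more and 2078 with no filter. The 311 lower genes became 502 and 766 without cells with 3 or more and 6 or more mesenchymal genes, 121 at 50 CPM or more and 578 with at least 4 epithelial genes. Between segments, 130 higher genes became 287 and 63 without cells with 3 or more and 6 or more, and 39 lower genes became 90 without cells with 3 or more. The tdTomato ratio (0.759 proximal) was 0.803 without cells with 3 or more, 0.727 against cells outside both rules and 0.737 from per-cell means. In the distal library (0.884) it was 0.661 and 0.781 without cells with 3 or more and 6 or more, and 0.793 with at least 4 epithelial genes. The proximal Hic1 ratio (0.164) was 0.0178 and 0.0555, and the distal one (0.0929) had 0 UMIs without cells with 3 or more and a bound of 0.487.

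With cells thinned to 3000 UMIs and the limit per gene changed from 2 UMIs to 1, which moves both choices at once, the share of epithelial cells with at least 3 genes of a list went from 77.7% and 66.7% to 40.9% and 51.0% for basal anchoring and from 39.3% and 37.3% to 10.4% and 11.8% for hair placode and germ. It went from 40.3% and 19.6% to 18.9% and 7.84% for spinous differentiation, from 51.3% and 51.0% to 17.3% and 11.8% for S phase, and from 48.7% to 37.1% for proximal G2/M, while distal G2/M stayed at 37.3%. Without cells with 6 or more mesenchymal genes, basal anchoring was 82.9% and 87.5%, and the distal hair share 56.3%. Without cells with 3 or more, the proximal shares were 30.7% (hair), 32.1% (spinous), 36.4% (G2/M) and 39.3% (S phase), and the distal ones 80.0% (basal anchoring) and 20% (S phase). By the rule at 3000 UMIs, 0.430% of E14.5 cells and 0.0366% and 0.0528% of whole-limb cells met it.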
